A study of Mus musculus with 17 samples.

Results

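The abundant long noncoding RNAs of the mouse hippocampus were the subject, that is, RNAs of more than a short length that are transcribed from their own genes and are not known to be translated. They were selected on the deposited counts as genes of the type lncRNA on chromosomes 1 to 19 except chromosome 16, with a mean raw count of 300 or more over all 17 libraries, and without Dlx6os1 and H19. The selection gave 159 of the 9959 lncRNA genes in the table, which holds 55385 genes in all, and 8937 of those lncRNA genes lie on the same chromosomes. The mean count chose these RNAs, so their high levels are a description and no test was made of them. Just inside the threshold stood Gm11149 (mean count 303), Gm13872 (301) and 4933428P19Rik (301), and just outside it Gm50251 (299), Pvt1 (299) and 0610039K10Rik (298).

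Polyadenylated RNA was sequenced from the hippocampus of adult mice aged 17.1 to 18.0 weeks, with 1 library per mouse. There were 5 Dp16 2xIFNRs mice (3 female, 2 male), 6 Dp16 mice and 6 wild-type C57BL/6J mice, called WT, the last 2 groups with 3 mice of each sex. Dp16 mice carry a duplicated segment of chromosome 16 that corresponds to human chromosome 21 and serve as a model of Down syndrome, and every cell of the animal carries the duplication. Dp16 2xIFNRs mice carry the same duplication, but their interferon receptor genes are at normal dosage.

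Long noncoding RNAs act in several ways. Some build or sit in bodies of the cell nucleus, some carry microRNAs (miRNAs) or small nucleolar RNAs (snoRNAs) that are cut out of the transcript, and some are read from 1 parental copy only and silence neighbouring genes. Others bind proteins or miRNAs in the cytoplasm, and many have no known role. Neurons are rich in such RNAs, among them Meg3, Miat, Rian and the small dendritic RNA Bc1.

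The 17 libraries held 30.4 to 33.1 M counts each (M, mega), and the 159 RNAs took 1.04 to 1.48% of them. The hippocampal and glial marker genes were detected in every group, with a summed level of 4 neuronal markers of 4453 to 5127 CPM in Dp16 2xIFNRs, 4672 to 5396 CPM in Dp16 and 4429 to 5679.8 CPM in WT mice (CPM, counts per M counts, here before scaling). All other CPM are after scaling of the libraries. None of the markers was at 0 in a group. The summed level of 6 choroid plexus markers was 95.7 CPM in Dp16 2xIFNRs mouse 5, 62.3 CPM in Dp16 mouse 6 and 57.6 CPM in WT mouse 6, and 2277 to 6426 CPM in the other 14 libraries, so these 3 libraries stood apart. WT mouse 4 stood apart too, in 4 thalamus markers that summed to 374 CPM before scaling, against 80.2 to 122 CPM in the other 16 libraries. In bulk tissue, fewer cells of a type and less RNA per cell cannot be told apart.

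Of the 159 RNAs, at least 14 hold mature miRNAs on their own strand (73 entries of the RefSeq table, GRCm38.p6). At least 7 hold snoRNA genes (243 genes of GENCODE M21, of which 208 lie in Snhg14). No miRNA entry was found in Mir124a-1hg or Mir124-2hg, although both are named as hosts of miR-124. Hosts can therefore be missing from the 14, which is a lower bound. The sequences below are those of miRNAs whose host RNAs carry the results, written 5′ to 3′ with the seed, bases 2 to 8, in capitals. All 3 hosts of miR-9, an miRNA of neural progenitors and neurons, were among the 159 RNAs, and the mature sequence is the same at Gm3764 (chr3:88215613-88215635), C130071C03Rik (chr13:83738821-83738843) and Mir9-3hg (chr7:79505279-79505301), each on the plus strand.
miR-9-5p (Gm3764, C130071C03Rik, Mir9-3hg): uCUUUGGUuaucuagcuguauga
miR-29b-3p (A330023F24Rik, chr1:195037091-195037113): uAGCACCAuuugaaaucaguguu
miR-29c-3p (A330023F24Rik, chr1:195037600-195037621): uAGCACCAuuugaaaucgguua
miR-138-5p (C78859, chr8:94324312-94324334): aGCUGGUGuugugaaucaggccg
miR-134-5p (Mirg, chr12:109734145-109734166): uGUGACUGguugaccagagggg
miR-770-3p (Meg3, chr12:109563744-109563765): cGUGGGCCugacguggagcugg
miR-125b-5p (Mir100hg, chr9:41581940-41581961): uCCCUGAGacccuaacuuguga
miR-29b-3p and miR-29c-3p share their seed, and the other seeds differ from each other. The counts are of long polyadenylated RNA and do not measure the mature miRNAs.

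Sequences of 2 RNAs among the 10 with the highest mean counts are shown next, from transcripts of GENCODE M21 on GRCm38. Bc1 (chr7:144914470-144914637, plus strand) is a short RNA of neurons, made by RNA polymerase III and carried into dendrites, where it represses translation. It is shown whole, since it is the shortest of the abundant RNAs and holds a long A-rich stretch. The capitals mark its longest run of A, 23 bases, and 41.7% of its 168 bases are A. Malat1, an RNA of nuclear speckles, ends at a genomically encoded A run that folds back into a triple helix. The stretch shown (chr19:5795984-5796075, minus strand) has the T-rich tract TTTTTCTTTT and the run of 12 A in capitals, 58 bases apart, and the annotated transcript goes on for 298 bases. Of 2596 transcripts at least as long, 0.347% held this tract followed within 80 bases by 10 or more A in their last 6983 bases, and the same share held it on the other strand.
Bc1: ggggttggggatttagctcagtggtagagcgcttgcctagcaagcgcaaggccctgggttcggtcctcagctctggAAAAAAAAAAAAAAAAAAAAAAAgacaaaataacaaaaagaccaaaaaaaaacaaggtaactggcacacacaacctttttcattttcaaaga
Malat1: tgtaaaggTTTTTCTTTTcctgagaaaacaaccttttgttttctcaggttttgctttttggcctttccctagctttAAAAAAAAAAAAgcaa

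Mean counts of the 159 RNAs ran from 301 to 67318, with a median of 609. Of them 43 reached 1000 and 6 reached 10000, and the 5 highest took 56.1% of all their counts. Per length, their deposited RPKM (reads per kilobase and per M reads) ran from 0.184 for Kcnq1ot1 to 1153 for Gm42418, with a median of 6.90. The rank order by count and by RPKM differed (Spearman rho 0.504 across the 159 genes, which are not independent replicates). Kcnq1ot1 had 542 counts spread over an annotated length of 93092 bases, whereas Bc1 had 5348 counts in 168 bases and 1003 RPKM. The 15 highest by RPKM were, in order, Gm42418, Bc1, AY036118, 2900097C17Rik, Malat1, Meg3, Oip5os1, Gm42413, Gas5, Gm50163, Gm11175, Peg13, Chn1os1, Gm12999 and Gm28221. Of the 159 RNAs, 117 have only a clone or predicted name, among them Gm42413, Gm50163, Gm12999 and Gm28221 at 71.9, 68.7, 42.7 and 42.2 RPKM. Chn1os1, named for its place opposite Chn1, had 48.4 RPKM.

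**Figure D1:**
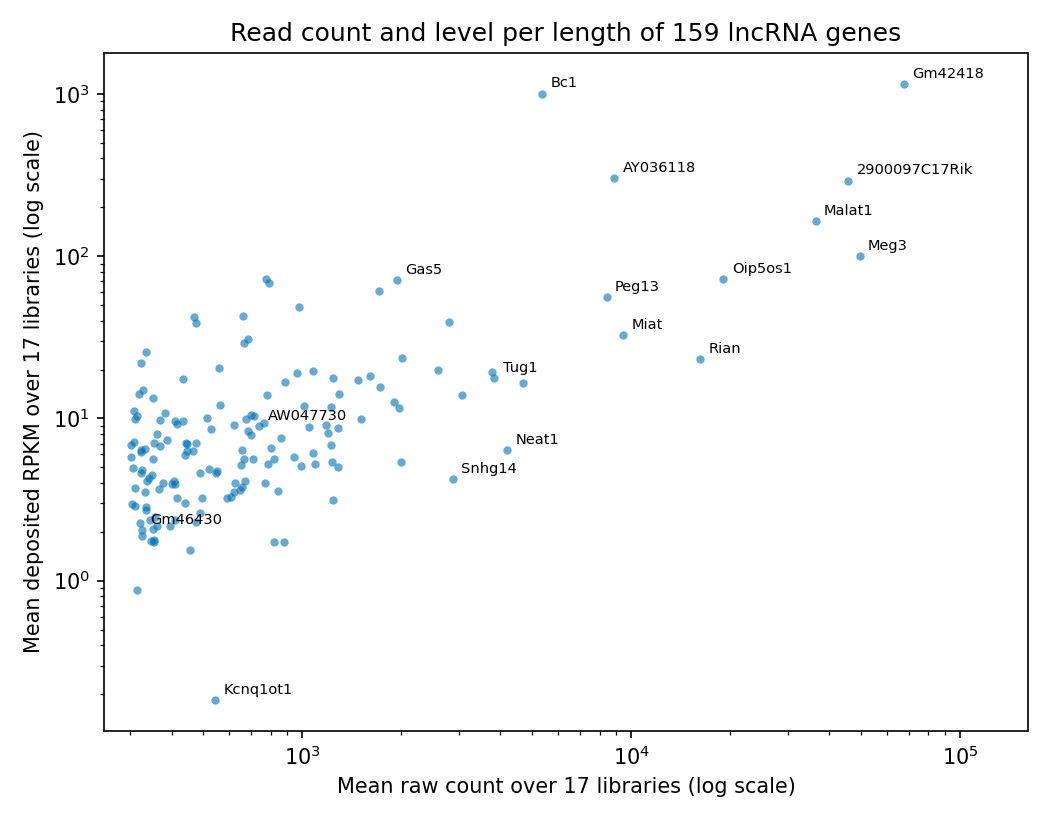
Mean raw count (x axis, log scale) against mean deposited RPKM (y axis, log scale) over 17 libraries for each of the 159 lncRNA genes, 1 point per gene. Bc1, a short RNA, stands near Gm42418 in RPKM at 5348 against 67318 counts, and Kcnq1ot1 is the lowest at 0.184 RPKM.

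Position on GRCm38 matters for what the counts can hold. Exons of 79 RNAs lie over exons of a protein-coding gene on the opposite strand (82 RNAs have such bases when all classes are counted), and exons of 11 share bases with one on the same strand. A further 39 neither overlap nor adjoin a protein-coding gene, 12 start within 5 kb after one, 10 start within 1 kb of one in the divergent direction, and 8 lie inside or across one without shared exons. The kit kept the strand, but the strand setting of the counting is not given in the sources used here. The levels of the antisense RNAs are therefore less certain. Gm11175 (chr8:70699162-70700080, minus strand) is an example, as all of its 877 exon bases lie over Jund, a subunit of the AP-1 transcription factor. Gm11175 had 53.1, 41.4, 41.2, 45.2 and 44.7 CPM in Dp16 2xIFNRs mice 1 to 5, against a lowest, median and highest of 47.95, 53.5 and 76.99 CPM in Dp16 mice and 45.3, 53.7 and 76.7 CPM in WT mice. Its log2 fold change (± SE) was -0.35 ± 0.14 in Dp16 2xIFNRs against WT mice (edgeR adjusted p = 0.207), beside -0.29 ± 0.083 (edgeR adjusted p = 0.103) for Jund.

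Across the 3 comparisons few of the 159 RNAs passed the test between genotypes. In Dp16 2xIFNRs against WT mice 2 of 159 were called by edgeR at an adjusted p under 0.05, 1 higher and 1 lower, where 0.98% of the 18983 tested genes were called. In Dp16 2xIFNRs against Dp16 mice 0 of 159 were called, against 0.0158% of all tested genes, and in Dp16 against WT mice 0 of 159, against 0.537%. At an unadjusted p under 0.05, 20 were higher (12.6%) and 22 lower (13.8%) in the first comparison, beside 8.44% and 8.6% of all tested genes. In the second, 25 were higher (15.7%) and 6 lower (3.77%), beside 6.99% and 3.48%, and in the third 11 were higher (6.92%) and 9 lower (5.66%), beside 5.61% and 3.97%. DESeq2 called 7, 0 and 3 RNAs in the same order, where it called 3.86%, 0.0316% and 1.21% of all genes it gave an adjusted p. limma-voom called 2, 0 and 0, where it called 0.922%, 0.0158% and 0.548% of all genes. The comparisons share mice in pairs, so their counts are not independent of each other. All tested genes, here and below, include those of chromosome 16, with the duplicated segment, and genes of lower counts. Both kinds were left out of the 159, so the shares are not those of a matched set.

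Sizes were modest. The median log2 fold change of the 159 RNAs was -0.027 in Dp16 2xIFNRs against WT, -0.033 in Dp16 2xIFNRs against Dp16 and -0.024 in Dp16 against WT mice, beside 0.0043, -0.0073 and -0.0059 over all tested genes. Changes of at least 0.5 in either direction were fitted for 11 (6.92%), 17 (10.7%) and 0 of the 159, beside 8.40%, 7.15% and 5.03% of all tested genes. These again include chromosome 16 and genes of lower counts, so the 2 sets are not matched. The 3 that reached 1 in Dp16 2xIFNRs against Dp16 mice, Meg3, Mir124a-1hg and C78859, were not called (edgeR adjusted p = 0.433 for Meg3, 0.433 for Mir124a-1hg and 0.433 for C78859).

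**Figure D2:**
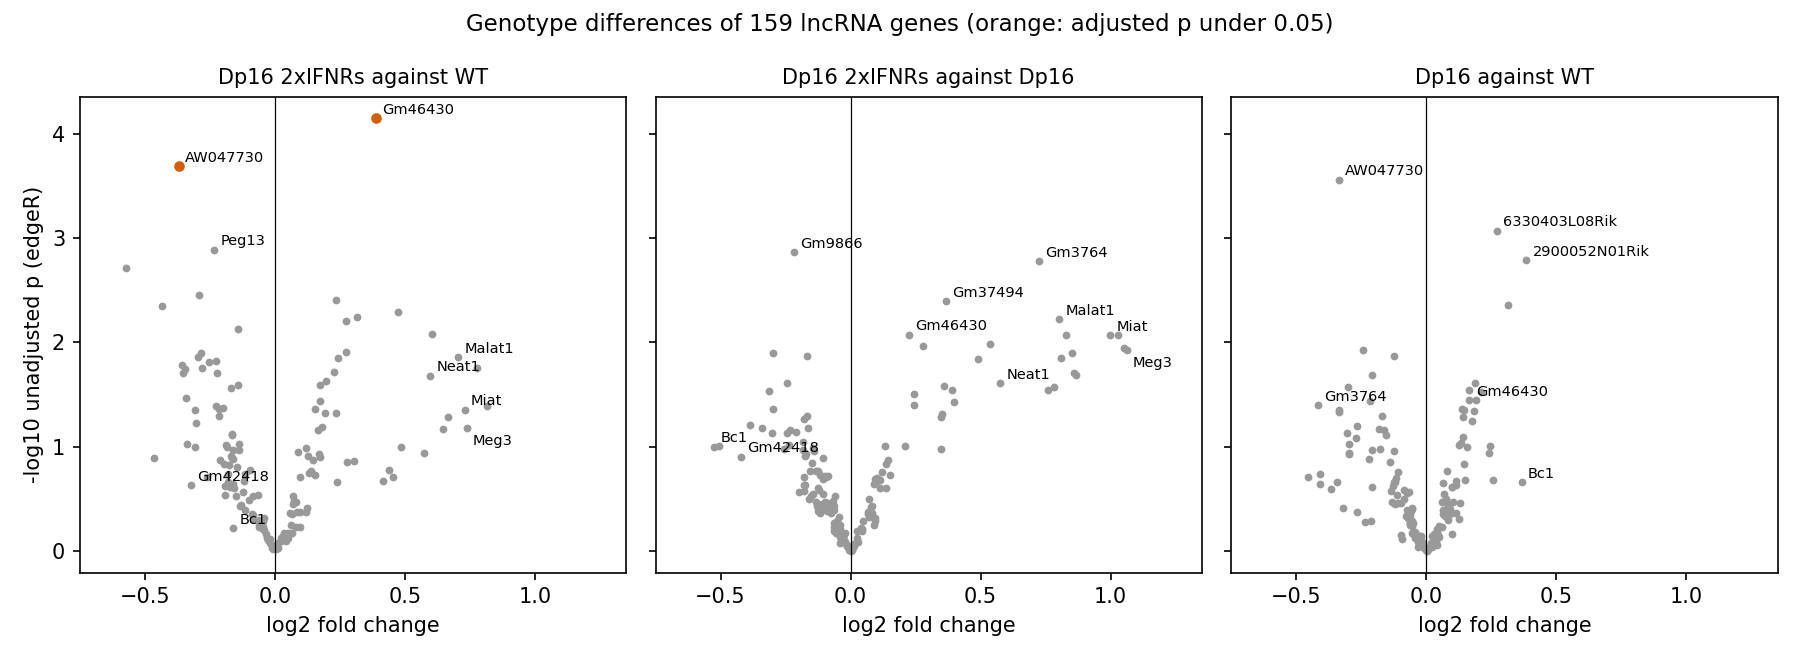
Log2 fold change (x axis) against the -log10 of the unadjusted edgeR p (y axis) for 159 lncRNA genes in each comparison, 1 point per gene, with called genes in orange. The 2 called RNAs, Gm46430 and AW047730, stand in Dp16 2xIFNRs against WT, and Malat1, Miat and Meg3 lie at larger fold changes with a lower -log10 p than these 2.

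Gm46430 rose in Dp16 2xIFNRs against WT mice. It is an uncharacterised gene (ENSMUSG00000113204.1, chr13:74579358-74617945, minus strand) between the coding genes Zfp825 and Erap1. RefSeq lists a protein-coding gene under the same symbol, so its type is uncertain. It had 10.4, 12.9, 12.8, 11.9 and 11.2 CPM in Dp16 2xIFNRs mice 1 to 5, against a lowest, median and highest of 9.57, 10.01 and 11.05 CPM in Dp16 mice and 8.46, 8.92 and 10.1 CPM in WT mice. All 5 Dp16 2xIFNRs mice stood above all 6 WT mice, and Dp16 mice overlapped both. The log2 fold change was 0.39 ± 0.076 against WT, that is 1.31-fold (edgeR adjusted p = 0.0132, 0.000507 to 0.0925 over 33 alternatives), 0.22 ± 0.076 against Dp16 mice (edgeR adjusted p = 0.433) and 0.17 ± 0.073 in Dp16 against WT mice (edgeR adjusted p = 0.492). Its neighbours Zfp825 and Erap1 gave 0.0025 ± 0.12 (edgeR adjusted p = 0.995) and 0.072 ± 0.086 (edgeR adjusted p = 0.708). The call was lost without Dp16 2xIFNRs mouse 2 (edgeR adjusted p = 0.0519) or mouse 3 (0.0722), without the 3 libraries low in choroid plexus markers (0.0532) and with the slope on gene length as a covariate (0.0925), while its log2 fold change in these 4 fits was 0.35, 0.36, 0.40 and 0.34. It was also lost in limma-trend on log2 RPKM with 0.1 added (limma adjusted p = 0.0545) or 1 added (0.0501). Without WT mouse 4 it held (edgeR adjusted p = 0.00921).

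AW047730 fell in Dp16 2xIFNRs against WT mice. This uncharacterised RNA (ENSMUSG00000097428.1, chr3:88200623-88203481, plus strand) lies upstream of the miR-9 host Gm3764 on the same strand. It had 22.6, 20.1, 21.2, 18.9 and 21.1 CPM in Dp16 2xIFNRs mice 1 to 5, against a lowest, median and highest of 19.3, 21.2 and 24.6 CPM in Dp16 mice and 22.1, 27.9 and 30.02 CPM in WT mice. WT mouse 1 was the lowest WT mouse and the one that overlapped with Dp16 2xIFNRs mice. The log2 fold change was -0.37 ± 0.08 against WT, that is 0.775-fold (edgeR adjusted p = 0.0299, 0.0013 to 0.143 over 33 alternatives), and -0.34 ± 0.075 in Dp16 against WT mice (edgeR adjusted p = 0.0508, 0.00326 to 0.189 over 33 alternatives). Between Dp16 2xIFNRs and Dp16 mice it was -0.031 ± 0.08 (edgeR adjusted p = 0.906). The call against WT was lost without WT mouse 2 (edgeR adjusted p = 0.0513), 3 (0.0936), 5 (0.0663) or 6 (0.057), without Dp16 2xIFNRs mouse 2 (0.0783), 3 (0.117) or 4 (0.103), without the 3 libraries low in choroid plexus markers (0.0858), with the slope as a covariate (0.143) and with only these 2 groups in the fit (0.0806). Without WT mouse 4 it held (0.0177). Its log2 fold change lay between -0.42 and -0.30 over all alternatives.

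**Figure D3:**
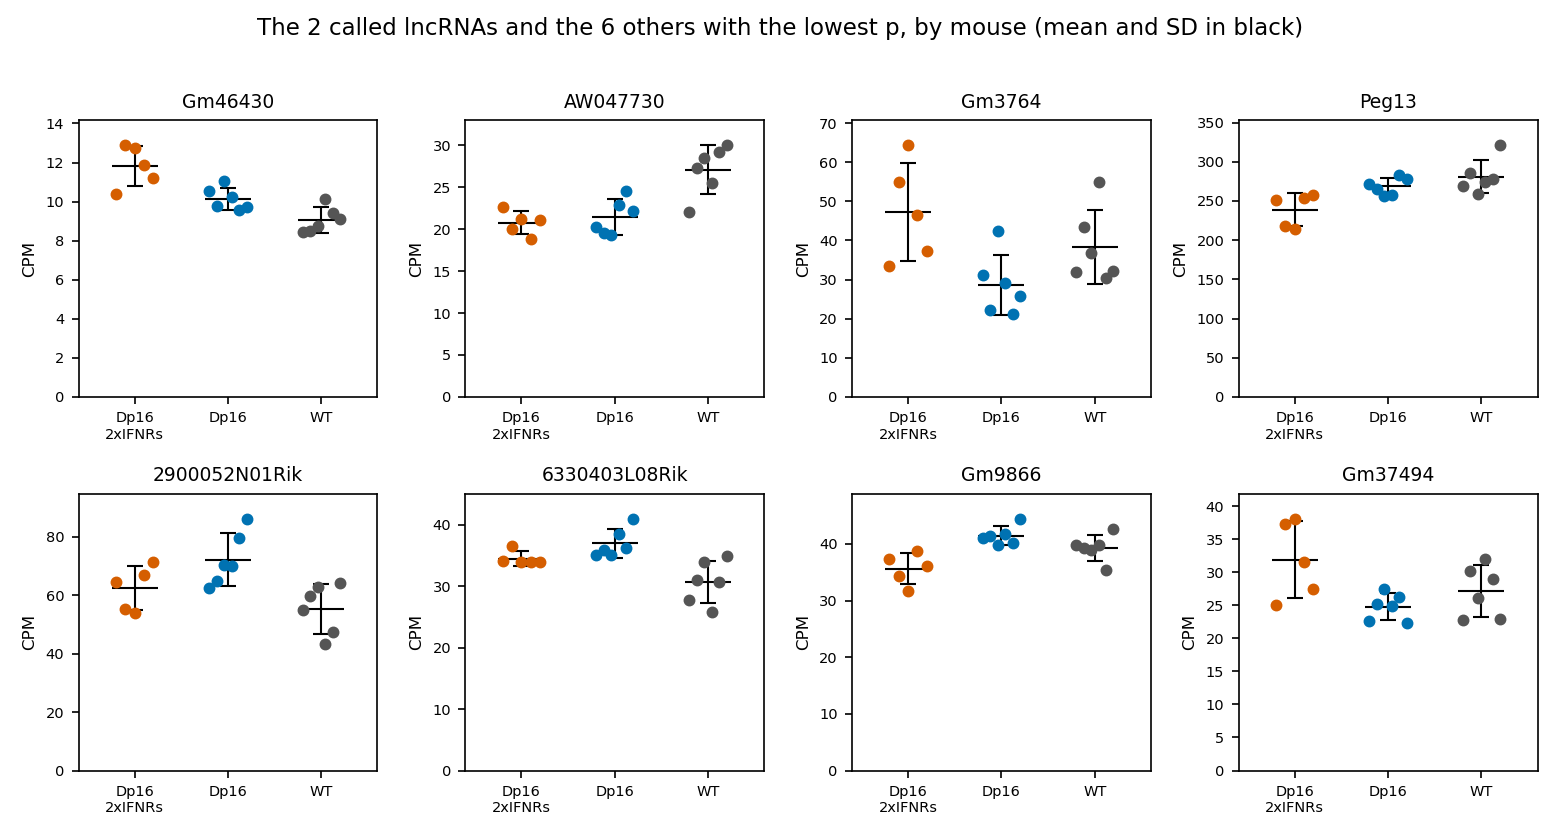
CPM (y axis, from 0) by mouse and genotype for Gm46430, AW047730 and the 6 other lncRNAs with the lowest p in a comparison, with the mean and SD in black (n = 5, 6 and 6). The Dp16 2xIFNRs mice stand above all WT mice for Gm46430 and below all of them for Peg13.

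The other RNAs with the lowest p values did not pass the adjustment. 2900052N01Rik, uncharacterised, had 64.6, 55.3, 54.1, 66.8 and 71.4 CPM in Dp16 2xIFNRs mice 1 to 5, against a lowest, median and highest of 62.4, 70.3 and 86.1 CPM in Dp16 mice and 43.3, 57.3 and 64.1 CPM in WT mice. The 2 highest mice were Dp16 mice 5 and 6, the Dp16 and WT ranges overlapped, and the log2 fold change in Dp16 against WT mice was 0.38 ± 0.10 (edgeR adjusted p = 0.147). 6330403L08Rik, antisense to the growth factor gene Pdgfa over 813 bases, had 34.1, 36.6, 33.95, 33.9 and 33.8 CPM in Dp16 2xIFNRs mice 1 to 5, against a lowest, median and highest of 35.03, 36.1 and 40.9 CPM in Dp16 mice and 25.8, 30.8 and 34.8 CPM in WT mice. Every Dp16 mouse stood above every WT mouse, and the log2 fold change was 0.27 ± 0.068 (edgeR adjusted p = 0.105), beside -0.049 ± 0.056 (edgeR adjusted p = 0.832) for Pdgfa. Gm9866 and Gm37494, both uncharacterised, had log2 fold changes of -0.22 ± 0.058 and 0.37 ± 0.11 in Dp16 2xIFNRs against Dp16 mice (edgeR adjusted p = 0.433 each). Every Dp16 2xIFNRs mouse was below every Dp16 mouse for Gm9866, with 31.8 to 38.7 CPM against 39.9 to 44.4 CPM. Dlx1as, antisense to Dlx1, a transcription factor of inhibitory neurons, averaged 10.4 ± 0.569 CPM in Dp16 2xIFNRs (SD, n = 5), 10.4 ± 1.07 CPM in Dp16 and 8.39 ± 1.202 CPM in WT mice (n = 6 each), and it was 0.32 ± 0.10 in Dp16 2xIFNRs against WT (edgeR adjusted p = 0.135) and 0.31 ± 0.10 in Dp16 against WT mice (edgeR adjusted p = 0.247), beside -0.078 ± 0.076 (edgeR adjusted p = 0.639) and 0.034 ± 0.072 (edgeR adjusted p = 0.914) for Dlx1. The difference between the sexes in the genotype change was called for 0 of the 159 RNAs by edgeR (lowest adjusted p = 0.998), where 0.0% of all tested genes were called in either comparison. At an unadjusted p under 0.05 there were 5 of 159 in Dp16 2xIFNRs against WT mice, beside 2.73% of all tested genes, and 6 in Dp16 against WT mice, beside 2.98%.

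The nuclear body RNAs Malat1, Neat1 and Miat had their highest mouse among Dp16 2xIFNRs mice, but none passed the test between genotypes. Malat1 marks nuclear speckles, Neat1 is the scaffold of paraspeckles, and Miat (also Gomafu) forms a separate nuclear domain in neurons. Malat1 (ENSMUSG00000092341.3, chr19:5795690-5802672, minus strand) had 949.9, 2043, 1855, 1677 and 1481 CPM in Dp16 2xIFNRs mice 1 to 5, against a lowest, median and highest of 653, 838 and 1417 CPM in Dp16 mice and 562, 830.2 and 1784 CPM in WT mice. Of the Dp16 2xIFNRs mice, 4 stood above every Dp16 mouse, WT mouse 4 stood among them, and Dp16 2xIFNRs mouse 1 stood within both other groups. The log2 fold changes of Malat1 were 0.70 ± 0.26 against WT (edgeR adjusted p = 0.185, 0.0268 to 0.742 over 33 alternatives) and 0.80 ± 0.26 against Dp16 (edgeR adjusted p = 0.433). Without WT mouse 4 the first was 0.98 and passed (edgeR adjusted p = 0.0268). Neat1 had 110.2, 229, 218, 159 and 139.8 CPM in Dp16 2xIFNRs mice 1 to 5, against a lowest, median and highest of 80.96, 119 and 135 CPM in Dp16 mice and 63.9, 101 and 207 CPM in WT mice. The groups overlapped, again with WT mouse 4 and Dp16 2xIFNRs mice 2 and 3 at the top. Miat had 184, 661, 582, 483 and 259.6 CPM in Dp16 2xIFNRs mice 1 to 5, against a lowest, median and highest of 140.1, 192 and 399 CPM in Dp16 mice and 157, 224 and 456 CPM in WT mice. Its 3 highest mice were Dp16 2xIFNRs mice 2, 3 and 4, followed by WT mouse 4 and Dp16 mouse 3. At an unadjusted p under 0.05 all 3 RNAs were higher in Dp16 2xIFNRs against WT mice, beside 8.44% of all tested genes. All 3 were also higher against Dp16 mice, beside 6.99%. In Dp16 against WT mice 0 of the 3 differed, beside 5.61% higher and 3.97% lower. With genotype means taken off, r with Meg3 was 0.992 for Miat, 0.946 for Malat1 and 0.648 for Neat1. The 3 RNAs are therefore not 3 independent results. Their median log2 fold change was 0.70 in Dp16 2xIFNRs against WT and 0.80 against Dp16 mice, beside 0.0043 and -0.0073 over all 18983 tested genes, and -0.10 in Dp16 against WT mice, beside -0.0059.

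Of the 13 tested proteins of speckles and paraspeckles, 0 were called by edgeR in any of the 3 comparisons. At an unadjusted p under 0.05, 2 of 13 were higher in Dp16 2xIFNRs against WT, beside 8.44% of all tested genes, 7 were higher in Dp16 2xIFNRs against Dp16, beside 6.99%, and 0 were higher in Dp16 against WT mice, beside 5.61%. In each comparison 0 of the 13 were lower at that p. Srrm2, a core protein of speckles, differed by 0.51 ± 0.18 (edgeR adjusted p = 0.433) on the log2 scale in Dp16 2xIFNRs against Dp16 mice. Sfpq, a paraspeckle protein, had 0.22 ± 0.10 (edgeR adjusted p = 0.45), and its partner Nono -0.052 ± 0.041 (edgeR adjusted p = 0.647).

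The maternally expressed RNAs of the imprinted Dlk1-Dio3 region on chromosome 12 varied widely between mice, with no call between genotypes. Meg3, a nuclear RNA that is among the most abundant of neurons, Rian, which carries snoRNAs and miRNAs, and Mirg, a host of 26 of the mature miRNA entries, lie there in a row on the plus strand. Meg3 (ENSMUSG00000021268.17, chr12:109541001-109571726, plus strand) had 983, 3722, 2796, 2599 and 1395 CPM in Dp16 2xIFNRs mice 1 to 5, against a lowest, median and highest of 668, 925 and 2170.3 CPM in Dp16 mice and 733, 1118 and 2720.1 CPM in WT mice. Dp16 2xIFNRs mouse 2 was the highest of all mice and Dp16 mouse 5 the lowest, and the 3 genotypes overlapped. The log2 fold changes of Meg3 were 0.74 ± 0.38 in Dp16 2xIFNRs against WT (edgeR adjusted p = 0.327), 1.06 ± 0.38 in Dp16 2xIFNRs against Dp16 (edgeR adjusted p = 0.433) and -0.32 ± 0.36 in Dp16 against WT mice (edgeR adjusted p = 0.826). Rian (chr12:109603940-109661716, plus strand) had 441, 654, 586, 597 and 526 CPM in Dp16 2xIFNRs mice 1 to 5, against a lowest, median and highest of 426, 479 and 528 CPM in Dp16 mice and 407, 492 and 595 CPM in WT mice. Its spread was narrower than that of Meg3, and its log2 fold change in Dp16 2xIFNRs against Dp16 mice was 0.24 ± 0.10 (edgeR adjusted p = 0.445). Mirg (chr12:109729764-109749460, plus strand) had 7.24, 21.8, 16.2, 16.9 and 10.5 CPM in Dp16 2xIFNRs mice 1 to 5, against a lowest, median and highest of 4.31, 7.18 and 12.2 CPM in Dp16 mice and 4.35, 9.91 and 18.9 CPM in WT mice, and differed by 0.87 ± 0.34 on the log2 scale in the same comparison (edgeR adjusted p = 0.438). The paternally expressed coding genes of the region, Dlk1, Rtl1 and Dio3, gave 0 calls, with Dlk1 at 0.091 ± 0.32 (edgeR adjusted p = 0.933) and Dio3 at 0.12 ± 0.36 (edgeR adjusted p = 0.918) in Dp16 2xIFNRs against Dp16 mice.

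**Figure D4:**
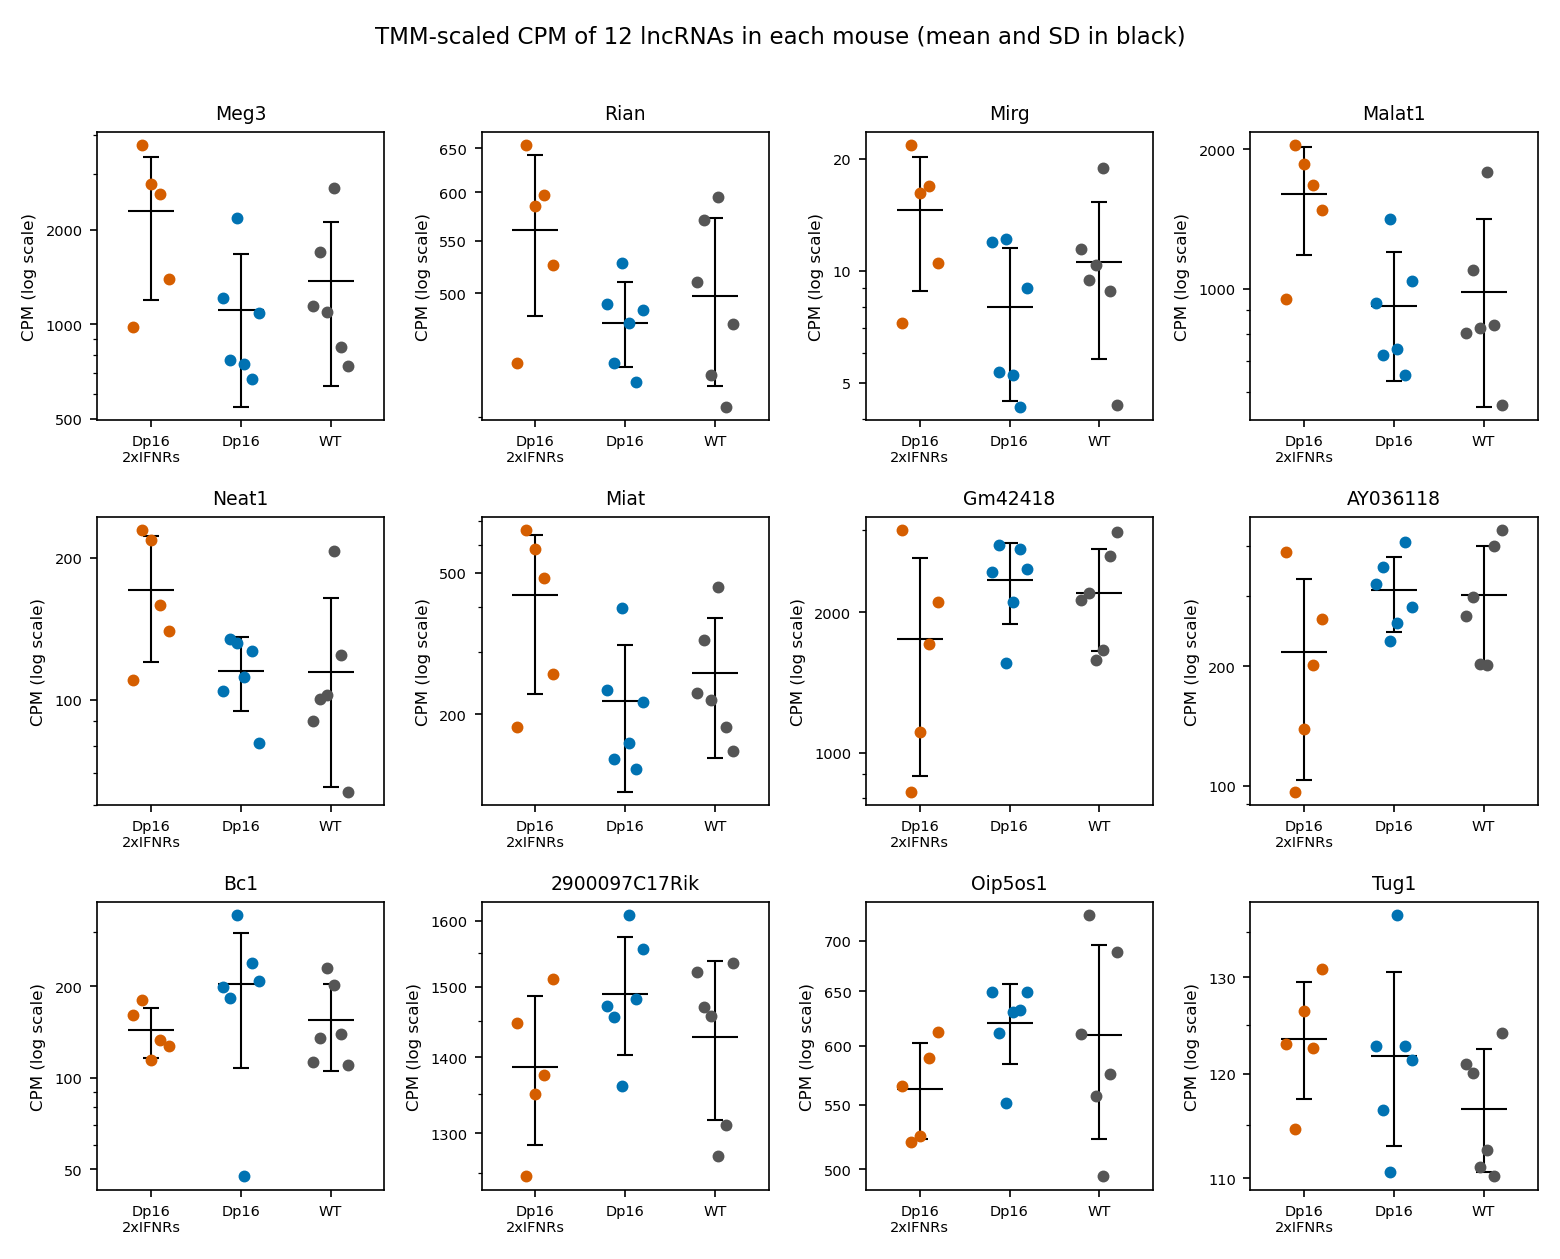
CPM (y axis, log scale, a separate scale per panel) of 12 lncRNAs in each mouse by genotype, with the mean and SD in black (n = 5, 6 and 6). Meg3, Mirg, Malat1 and Miat are high in Dp16 2xIFNRs mice 2 to 4 and in WT mouse 4. Dp16 mouse 3 is the highest Dp16 mouse for each, with Dp16 mouse 1 about level for Mirg (11.99 against 12.2 CPM). Malat1 is also high in Dp16 2xIFNRs mouse 5 (1481 CPM). Norad (2900097C17Rik), Oip5os1 and Tug1 differ little between mice.

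Mice with more Meg3 also had more of its neighbours and more Malat1. After the genotype means were taken off, log2 CPM of Meg3 and Rian correlated over the 17 mice with a Pearson r of 0.882 (permutation p = 1e-05, the smallest that 100000 resamples can give, adjusted 1.7e-05) and a Spearman rho of 0.900 (adjusted permutation p = 1.7e-05), and r was 0.865 without the 2 mice farthest from the median of Meg3. For Meg3 and Mirg r was 0.899 (adjusted permutation p = 1.7e-05), rho was 0.900 (1.7e-05) and r without the 2 farthest mice was 0.866. For Rian and Mirg r was 0.708 (adjusted permutation p = 0.0021), rho was 0.757 (0.001) and r without the 2 farthest mice was 0.704. Malat1 and Meg3, on different chromosomes, reached an r of 0.946 (adjusted permutation p = 1.7e-05), a rho of 0.922 (1.7e-05) and an r of 0.916 without the 2 farthest mice. Malat1 and Neat1, neighbours on chromosome 19, had the lowest values, with an r of 0.693 (adjusted permutation p = 0.0022), a rho of 0.542 (0.027) and an r of 0.519 without the 2 farthest mice. All tests were two-sided and adjusted over these 5 pairs. Without WT mouse 4, the library high in thalamus markers, r was 0.854 for Meg3 and Rian, 0.875 for Meg3 and Mirg, 0.644 for Rian and Mirg, 0.938 for Malat1 and Meg3 and 0.515 for Malat1 and Neat1.

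The shared pattern went beyond the 5 pairs. Over the 158 other RNAs, r with Meg3 exceeded 0.8 for 20 RNAs (12.7%), against 5.60% of 10330 other genes at or over the lowest level of the 159, and lay under -0.8 for 2 (1.27%, against 2.798%). This is a description of mice that share libraries and scaling, with no test. C78859, the host of miR-138 and chosen here after its values were seen, had the widest range of the 159 RNAs, with 11.4, 37.004, 31.5, 23.1 and 12.6 CPM in Dp16 2xIFNRs mice 1 to 5, against a lowest, median and highest of 4.91, 10.1 and 22.7 CPM in Dp16 mice and 7.38, 11.4 and 24.1 CPM in WT mice. Its highest mice were those highest in Meg3. A330023F24Rik, the host of miR-29b and miR-29c, had 15.7, 52.97, 41.3, 38.3 and 22.2 CPM in Dp16 2xIFNRs mice 1 to 5, against a lowest, median and highest of 14.1, 17.9 and 31.3 CPM in Dp16 mice and 12.1, 17.3 and 42.3 CPM in WT mice. Mir124a-1hg, named as a host of miR-124, the main miRNA of neurons, had 48.2, 176, 153, 127 and 71.4 CPM in Dp16 2xIFNRs mice 1 to 5, against a lowest, median and highest of 36.4, 47.2 and 105 CPM in Dp16 mice and 41.4, 67.02 and 143 CPM in WT mice. Both were highest in Dp16 2xIFNRs mouse 2, and the genotypes overlapped for each. Gm42418 and AY036118 ran the other way, with an r with Meg3 of -0.803 and -0.796, so AY036118 is not among those under -0.8. Their levels are given below.

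**Figure D5:**
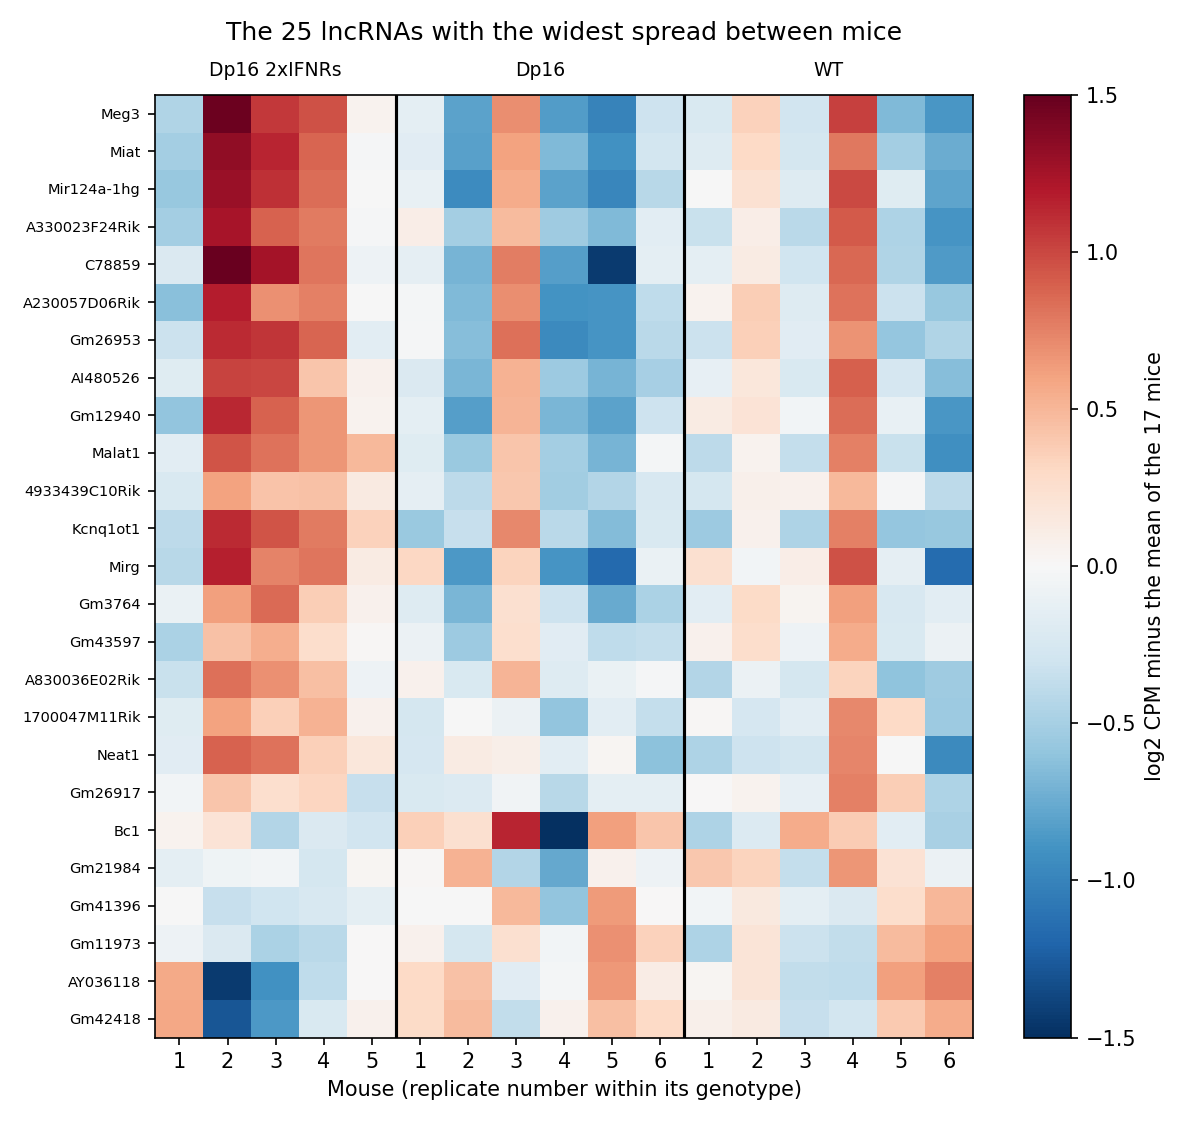
Heat map of log2 CPM minus the mean of the 17 mice for the 25 lncRNAs with the widest spread within genotypes (rows, ordered by their likeness to Meg3) in each mouse (columns, replicate number within genotype). Most rows are high in Dp16 2xIFNRs mice 2 to 4, Dp16 mouse 3 and WT mouse 4, and Gm42418 and AY036118 at the bottom are low in Dp16 2xIFNRs mice 2 and 3.

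A technical measure moved with part of this pattern, in relations computed after seeing the data. The slope on gene length, over coding genes and relative to the mean of all mice, was 0.0394 to 0.0571 in Dp16 2xIFNRs mice 2, 3 and 4, and -0.0624 to 0.0426 in the other libraries. Dp16 mouse 3 and WT mouse 4, which were also high in Meg3, had slopes of 0.0123 and -0.000841, within the range of the libraries low in Meg3. With genotype means taken off, the slope correlated with Meg3 (r 0.665, adjusted permutation p = 0.021, rho 0.684, adjusted permutation p = 0.02, n = 17), with Malat1 (r 0.580, adjusted permutation p = 0.029, rho 0.551, adjusted permutation p = 0.047) and inversely with Gm42418 (r -0.592, adjusted permutation p = 0.029, rho -0.610, adjusted permutation p = 0.032). Without the 2 libraries of the most extreme slope, r was 0.525, 0.462 and -0.358 in that order. The choroid plexus level gave r of 0.177, 0.154 and -0.221 (adjusted permutation p = 0.55 each) and rho of 0.0980, 0.0784 and -0.100 (adjusted permutation p = 0.77 each), and r without the 2 farthest libraries of 0.0146, -0.0686 and -0.0445. These 6 relations were adjusted together. With the slope as a covariate the log2 fold change of Meg3 in Dp16 2xIFNRs against Dp16 mice was 0.65, and with the slope taken off the r of Meg3 with Malat1 was 0.922. Whether the slope accounts for the pattern was not tested.

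The spread between mice of the same genotype is given as a description, with no test. The median biological coefficient of variation was 12.04% for the 159 RNAs and 8.58% for the 10330 others, and 15.7% against 3.06% of genes reached 20%. The highest mouse had 1.18 to 7.54 times the CPM of the lowest, at least 2 times in 36 RNAs, at least 4 times in 10 and under 1.5 times in 56.

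Gm42418 and AY036118 lie over each other on opposite strands of chromosome 17 (chr17:39846958-39848788, plus strand, and chr17:39847113-39848035, minus strand), beside Gm26917. RefSeq gives Gm42418 as a synonym of Rn18s-rs5, a sequence related to 18S ribosomal RNA, so its place among the long noncoding RNAs is uncertain. AY036118 lies wholly within the bounds of Gm42418, and with genotype means taken off their r was 0.974. The place of AY036118 is therefore uncertain too. Gm42418 had 3004, 826, 1109, 1711 and 2106 CPM in Dp16 2xIFNRs mice 1 to 5, against a lowest, median and highest of 1555, 2459 and 2787 CPM in Dp16 mice and 1579, 2161 and 2965 CPM in WT mice. AY036118 had 387, 96.8, 139, 201 and 262 CPM in Dp16 2xIFNRs mice 1 to 5, against a lowest, median and highest of 232, 302 and 411 CPM in Dp16 mice and 202, 283 and 440.0 CPM in WT mice. For both, Dp16 2xIFNRs mice 2 and 3 were the 2 lowest of all mice. Dp16 2xIFNRs mouse 1 was the highest of all mice for Gm42418 and among the 4 highest for AY036118. Their log2 fold changes in Dp16 2xIFNRs against Dp16 mice were -0.42 ± 0.26 (edgeR adjusted p = 0.56) and -0.51 ± 0.29 (edgeR adjusted p = 0.537). Gm26917, next to them, averaged 16.6 ± 3.34 CPM in Dp16 2xIFNRs (SD, n = 5), 13.1 ± 1.05 CPM in Dp16 and 16.6 ± 5.07 CPM in WT mice (n = 6 each). Together Gm42418 and AY036118 took 0.0953 to 0.337% of the counts in Dp16 2xIFNRs, 0.182 to 0.313% in Dp16 and 0.176 to 0.331% in WT libraries. Without them the other 157 RNAs took 0.854 to 1.38% in Dp16 2xIFNRs, 0.813 to 1.12% in Dp16 and 0.830 to 1.21% in WT libraries.

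Other imprinted RNAs gave 0 calls by edgeR among the 4 tested. Peg13, a paternally expressed RNA inside Trappc9, had 251, 218, 214, 253 and 257 CPM in Dp16 2xIFNRs mice 1 to 5, against a lowest, median and highest of 257, 268 and 283 CPM in Dp16 mice and 259, 276 and 321 CPM in WT mice. Every Dp16 2xIFNRs mouse stood below every WT mouse, and Dp16 mice overlapped both. The log2 fold change in Dp16 2xIFNRs against WT mice was -0.23 ± 0.061 (edgeR adjusted p = 0.0793, 0.0151 to 0.275 over 33 alternatives), beside -0.085 ± 0.046 (edgeR adjusted p = 0.357) for Trappc9. Snhg14, the long transcript that carries the snoRNAs of the Prader-Willi and Angelman region and runs antisense over Ube3a, had 72.2, 134, 126, 119 and 97.1 CPM in Dp16 2xIFNRs mice 1 to 5, against a lowest, median and highest of 77.2, 84.1 and 97.4 CPM in Dp16 mice and 59.2, 72.9 and 102 CPM in WT mice. It was 0.48 ± 0.15 in the same comparison (edgeR adjusted p = 0.127), and 1803 of its exon bases lie over Ube3a, which was 0.11 ± 0.054 (edgeR adjusted p = 0.288). Kcnq1ot1, the paternal RNA that silences the Kcnq1 domain, had 11.8, 33.7, 29.7, 26.5 and 19.8 CPM in Dp16 2xIFNRs mice 1 to 5, against a lowest, median and highest of 9.91, 11.9 and 25.6 CPM in Dp16 mice and 10.4, 10.9 and 26.3 CPM in WT mice. Dp16 mouse 3 and WT mouse 4 stood apart above the rest of their groups. Its log2 fold change in Dp16 2xIFNRs against WT mice was 0.78 ± 0.30 (edgeR adjusted p = 0.2).

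Several abundant regulatory RNAs varied little between mice. Norad, a cytoplasmic RNA that guards genome stability (2900097C17Rik, chr2:156388065-156392979, minus strand) averaged 1386 ± 101 CPM in Dp16 2xIFNRs (SD, n = 5), 1489 ± 85.6 CPM in Dp16 and 1428 ± 111 CPM in WT mice (n = 6 each). Its log2 fold change in Dp16 2xIFNRs against WT mice was -0.043 ± 0.066 (edgeR adjusted p = 0.777). Oip5os1, known as Cyrano, which directs the decay of miR-7, averaged 563 ± 39.7 CPM in Dp16 2xIFNRs (SD, n = 5), 621 ± 36.7 CPM in Dp16 and 609 ± 86.3 CPM in WT mice (n = 6 each). Tug1, which is needed for male fertility in mice, averaged 124 ± 5.98 CPM in Dp16 2xIFNRs (SD, n = 5), 122 ± 8.81 CPM in Dp16 and 116 ± 5.94 CPM in WT mice (n = 6 each). The highest mouse had 1.29 times the lowest for Norad, 1.47 times for Oip5os1 and 1.24 times for Tug1. Bc1 varied more and had 161, 179, 114, 133 and 127 CPM in Dp16 2xIFNRs mice 1 to 5, against a lowest, median and highest of 47.4, 203 and 343 CPM in Dp16 mice and 110.5, 137 and 229 CPM in WT mice. Dp16 mouse 4 was the lowest and Dp16 mouse 3 the highest of all mice, so the range of Dp16 mice held those of both other genotypes. Cerox1, which raises the subunits of mitochondrial complex I, averaged 19.7 ± 1.64 CPM in Dp16 2xIFNRs (SD, n = 5), 19.2 ± 1.78 CPM in Dp16 and 19.6 ± 1.75 CPM in WT mice (n = 6 each). Sox2ot, which overlaps the stem cell gene Sox2, and Pantr1, which starts beside the neuronal factor gene Pou3f3, averaged 43.1 ± 6.29 and 36.5 ± 4.85 CPM in Dp16 2xIFNRs, 39.5 ± 5.93 and 36.7 ± 3.81 CPM in Dp16 and 38.97 ± 5.51 and 37.9 ± 5.42 CPM in WT mice.

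The 3 host RNAs of miR-9, whose shared mature sequence is shown above, differed in their values. Gm3764 (chr3:88206813-88229959, plus strand) had 33.5, 54.9, 64.3, 46.4 and 37.3 CPM in Dp16 2xIFNRs mice 1 to 5, against a lowest, median and highest of 21.1, 27.4 and 42.3 CPM in Dp16 mice and 30.4, 34.4 and 55.05 CPM in WT mice. The 3 highest Dp16 2xIFNRs mice stood above every Dp16 mouse, and WT mice lay across both ranges. Its log2 fold change was 0.72 ± 0.20 in Dp16 2xIFNRs against Dp16 (edgeR adjusted p = 0.433, unadjusted p = 0.00168), 0.31 ± 0.20 in Dp16 2xIFNRs against WT (edgeR adjusted p = 0.437) and -0.42 ± 0.19 in Dp16 against WT mice (edgeR adjusted p = 0.5). C130071C03Rik had 50.1, 50.8, 48.1, 45.2 and 47.5 CPM in Dp16 2xIFNRs mice 1 to 5, against a lowest, median and highest of 42.1, 47.002 and 48.8 CPM in Dp16 mice and 39.5, 48.6 and 52.5 CPM in WT mice, and its highest mouse had 1.33 times the lowest. Mir9-3hg had 16.9, 16.7, 14.7, 14.7 and 14.9 CPM in Dp16 2xIFNRs mice 1 to 5, against a lowest, median and highest of 15.3, 16.5 and 19.99 CPM in Dp16 mice and 16.9, 18.8 and 23.1 CPM in WT mice. Dp16 2xIFNRs mice 3, 4 and 5 were the 3 lowest of all mice, and the log2 fold change against WT was -0.29 ± 0.087 (edgeR adjusted p = 0.114).

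Of the 17 tested RNAs of the miRNA host list, 10 of them among the 159, 0 were called by edgeR in any comparison. This list differs from the 14 RNAs found above to hold miRNAs and leaves out Gm3764 and C78859, among others. The median log2 fold change of the 17 was 0.10 in Dp16 2xIFNRs against WT, 0.24 in Dp16 2xIFNRs against Dp16 and -0.12 in Dp16 against WT mice. The medians over all tested genes were 0.0043, -0.0073 and -0.0059. Mir124-2hg, named as another host of miR-124, averaged 23.6 ± 1.996 CPM in Dp16 2xIFNRs (SD, n = 5), 22.1 ± 2.69 CPM in Dp16 and 26.6 ± 6.78 CPM in WT mice (n = 6 each). Mir22hg, host of miR-22, averaged 24.2 ± 1.74 CPM in Dp16 2xIFNRs (SD, n = 5), 25.9 ± 3.55 CPM in Dp16 and 23.5 ± 0.791 CPM in WT mice (n = 6 each). Mir100hg, host of miR-100, miR-125b and a let-7 miRNA, averaged 28.1 ± 7.03 CPM in Dp16 2xIFNRs (SD, n = 5), 22.1 ± 3.42 CPM in Dp16 and 27.3 ± 6.77 CPM in WT mice (n = 6 each). Of the 7 tested genes that cut miRNAs out of their hosts or act with them, 0 were called in any comparison, with Drosha at 0.044 ± 0.046 (edgeR adjusted p = 0.733) and Dicer1 at 0.11 ± 0.073 (edgeR adjusted p = 0.596) in Dp16 2xIFNRs against Dp16 mice.

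The snoRNA host list had 20 tested RNAs, 6 of them among the 159, and again 0 calls by edgeR. At an unadjusted p under 0.05, 2 of 20 were higher and 4 lower in Dp16 2xIFNRs against WT, beside 8.44% and 8.6% of all tested genes. In Dp16 2xIFNRs against Dp16 mice 5 were higher and 1 lower, beside 6.99% and 3.48%, and in Dp16 against WT mice 1 was higher and 1 lower, beside 5.61% and 3.97%. Gas5, whose spliced RNA is kept low by nonsense-mediated decay and by growth signals, averaged 57.2 ± 4.38 CPM in Dp16 2xIFNRs (SD, n = 5), 60.7 ± 5.33 CPM in Dp16 and 63.8 ± 5.51 CPM in WT mice (n = 6 each), and stood -0.17 ± 0.07 apart on the log2 scale in Dp16 2xIFNRs against WT mice (edgeR adjusted p = 0.234). Snhg12 averaged 12.6 ± 0.605 CPM in Dp16 2xIFNRs (SD, n = 5), 12.1 ± 1.71 CPM in Dp16 and 14.4 ± 1.13 CPM in WT mice (n = 6 each), with -0.20 ± 0.092 (edgeR adjusted p = 0.275). Zfas1 averaged 16.4 ± 1.16 CPM in Dp16 2xIFNRs (SD, n = 5), 17.7 ± 1.46 CPM in Dp16 and 18.4 ± 2.75 CPM in WT mice (n = 6 each) and Snhg6 9.696 ± 0.82 CPM in Dp16 2xIFNRs (SD, n = 5), 9.34 ± 0.758 CPM in Dp16 and 10.2 ± 0.764 CPM in WT mice (n = 6 each). Of the 8 tested proteins of snoRNA particles, 1 was called in Dp16 2xIFNRs against WT mice, where 0.98% of all tested genes were called. It was fibrillarin (Fbl), which methylates ribosomal RNA under the guidance of snoRNAs, at -0.31 ± 0.07 (edgeR adjusted p = 0.0408). In Dp16 against WT mice Fbl was -0.25 ± 0.066 (edgeR adjusted p = 0.143). Its results under the alternatives are not given here. The other 7, and the 10 nonsense-mediated decay factors, gave 0 calls in all 3 comparisons.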

How the data were processed

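RNA was extracted with TRIzol, enriched for poly(A) and sequenced as strand-specific libraries, per the labels' protocols. The authors deposited raw counts per gene and RPKM for each library. HISAT2 2.1.0 and HTSeq 0.6.1 are named for the build GRCm38, with SAMtools 1.5, FastQC 0.11.5 and bcl2fastq, per the submitters' processing notes. The strand setting of the counting is not given in the sources used here. File names give GENCODE release 24, and positions were taken from GENCODE M21, where all 159 genes matched by identifier.

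The test used edgeR 4.0.16 (R 4.3.3). Genes kept by filterByExpr (minimum count 10) numbered 18983. After TMM scaling, the quasi-likelihood fit took in all 17 libraries with terms for genotype and for sex, leaving 13 residual degrees of freedom. Genes were called at a Benjamini-Hochberg adjusted p under 0.05 over all tested genes. The common biological coefficient of variation was 14.1%. CPM carry the TMM scaling, and their log2 values a prior count of 2. A standard error was taken as the fold change over the root of F. The fit was tested on simulated data. Alternatives were DESeq2 1.42.0, limma 3.58.1 (voom, or limma-trend on log2 RPKM after adding 0.1 or 1), other scalings, filters, covariates and subsets of libraries. Replicate numbers come from the titles, which state no pairing of mice. Each library has its own identifier and was taken as 1 mouse, and 0 pairs of libraries held identical values. Where the labels do not name separate animals, p-values measure the spread between these libraries. Reads carry no molecular identifiers.

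The RNAs and gene lists were chosen with earlier results of these data known. Named genes are the 15 highest by RPKM, the called RNAs, the 3 lowest p of each comparison with fewer than 3 calls, members of the role lists, and the 3 RNAs at the threshold. C78859 was named after its values were seen. One result of the gene lists is not reported here.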

Additional observations from a re-analysis of the deposited data

Results flagged for a closer look

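Among 141 groups (47 named RNAs in 3 genotypes), 11 values of a single mouse lay far from the rest of their genotype by Dixon's criterion, and chance gives about 1 in 20. Dp16 mouse 3 was high in Meg3 (2170 CPM, the others 668 to 1213), Miat (399 CPM, the others 140.1 to 234) and Kcnq1ot1 (25.6 CPM, the others 9.91 to 13.3). WT mouse 4 was high in Kcnq1ot1 (26.3 CPM, the others 10.4 to 16.3) and Mir100hg (40.5 CPM, the others 23.0 to 28.4), and low in Pantr1 (27.7 CPM, the others 37.8 to 43.8). Dp16 mouse 4 was low in Gas5 (50.2 CPM, the others 60.4 to 64.6). Dp16 mouse 5 was high in Gm11175 (77.0 CPM, the others 47.95 to 56.8). Dp16 mouse 6 was high in Mir9-3hg (19.99 CPM, the others 15.3 to 16.9). Dp16 mouse 1 was low in Gm13872 (7.01 CPM, the others 10.1 to 11.9). Dp16 2xIFNRs mouse 2 was high in 6330403L08Rik (36.6 CPM, the others 33.8 to 34.1).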

How the results depend on the processing

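With a threshold of 200 or 500 mean counts in place of 300, 260 or 89 RNAs were selected. In Dp16 2xIFNRs against WT mice the 2 calls became 7 with DESeq2, 7 with no filter, 4 at an adjusted p under 0.1, 1 with only these 2 groups (AW047730 lost) or with limma-trend on RPKM plus 0.1 or plus 1 (Gm46430 lost), and 0 with the slope on gene length as a covariate or, chosen after seeing the data, without the 3 libraries low in choroid plexus markers. Leaving out each library gave 0 to 8, with 8 without WT mouse 4 (Malat1, Neat1 and Kcnq1ot1 among them), 6 without Dp16 2xIFNRs mouse 1 and 0 without Dp16 2xIFNRs mouse 2 or 3. In Dp16 against WT mice the count of 0 became 3 with DESeq2 (AW047730, 2900052N01Rik and 6330403L08Rik), 2 with no filter or with the choroid plexus covariate, 1 with DESeq2 size factors, a filter of 1 CPM, an adjusted p under 0.1 or either RPKM setting, and 0 to 1 with each library left out. In Dp16 2xIFNRs against Dp16 mice it became 1 with no filter (Gm3764) and 0 under every other alternative run. Outside DESeq2 and limma-voom, the share of all tested genes called in these fits is not given here. These counts therefore cannot be told apart from a general rise or fall in calls. Of the single-gene results of the 47 named RNAs under all alternatives, 4744 kept their side of the threshold and direction when called. A further 32 passed it anew, 18 lost it and none of those called changed sign. RNAs outside these 47 were also newly called in some alternatives and are not in this tally. The alternatives for the 5 correlations were chosen after seeing the data, and each kept its sign and passed: r with each mouse left out was 0.848 to 0.904 for Meg3 with Rian, 0.875 to 0.919 for Meg3 with Mirg, 0.635 to 0.772 for Rian with Mirg, 0.515 to 0.789 for Malat1 with Neat1 and 0.933 to 0.966 for Malat1 with Meg3. The cause of these changes was not tested.

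With the replicate number as a replicate block, 0 RNAs were called in each comparison, Gm46430 at an edgeR adjusted p of 0.0613 and AW047730 at 0.0762 in Dp16 2xIFNRs against WT mice. The share of all tested genes called with this block is not given here. The loss of both calls therefore cannot be told apart from a general fall in calls. Mice of the same number had a mean correlation of their deviations of 0.0772 (-0.216 to 0.471, 16 pairs), against -0.0141 (-0.420 to 0.515) for 80 other pairs. The ranges overlap and no test was made, so these values do not settle whether the numbers pair the mice.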
